A study of Mus musculus with 16 samples.

Results

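Mouse cells differentiated from induced pluripotent stem cells (iPSCs) with recombinant human WNT1 and DKK3 proteins added to the culture were compared with midbrain dopaminergic neurons taken from mouse embryos. The members were chosen by their labels. They are 5 arrays of treated cells and 6 arrays of primary neurons, 3 at embryonic day E13.5 and 3 at E14.5, so 11 of the 16 arrays of the series. By their labels the treated arrays are biological replicates, whereas the 3 arrays of a stage are technical ones, and each stage was averaged to 1 sample, which gave 7 samples. The 5 arrays of iPSC-derived cells cultured without these proteins were not compared here and only helped to estimate the spread between samples.

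Treated cells and primary neurons shared the mixed strain C57BL/6 x 129/Ola and the genotype Pitx3GFP/+. In this genotype 1 copy of Pitx3, a transcription factor gene of midbrain dopaminergic neurons, carries green fluorescent protein (GFP), and no group without that allele was compared. Primary cells came from the ventral midbrain and were sorted for GFP by flow cytometry per their labels. The series' design text says that the iPSC-derived cells were sorted for GFP as well, but the labels of the treated arrays do not name a sort. How many iPSC lines, cultures or embryos stand behind the samples is not given in the sources used here. The p-values therefore measure only how these samples spread, which may be technical. The 2 stages stand as the 2 primary samples, so most of that spread is between iPSC-derived arrays and little is between primary samples. Because no iPSC-derived cells without the proteins enter the comparison, an effect of WNT1 and DKK3 and an effect of culture cannot be told apart in it.

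Levels are log2 values after RMA, a method that corrects background, normalizes arrays by quantiles and summarizes the probes of a probe set. A difference of 1 is a 2-fold difference. Array medians ran from 5.87 to 6.02 over the 11 arrays, the number of arrays limits the precision, and levels of different genes cannot be set against each other because probes differ in brightness. Dim genes read slightly lower on treated arrays: the lower quartile of all probe sets was 4.34 to 4.50 on treated arrays and 4.57 to 4.70 on primary arrays. In the 25% of genes with the dimmest means, up to a mean level of 5.04, the median difference was -0.20, against 0.04 over the other genes, so small negative differences of dim genes are given beside that value.

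Midbrain dopaminergic neurons arise from the floor plate of the midbrain, where Sonic hedgehog and WNT1 act on dividing progenitors. Their progenitors use Foxa, Lmx1 and Otx2 factors, and the young neurons then switch on Nr4a2, Pitx3 and Engrailed genes together with the enzymes and transporters of dopamine. The substantia nigra supplies the dorsal striatum and the ventral tegmental area supplies limbic and cortical targets, and these subsets differ in genes such as Sox6 and Otx2. WNT1 signals through Frizzled and Lrp receptors to beta-catenin, and DKK3 is a secreted member of the Dickkopf family, whose other members block Lrp receptors together with Kremen proteins.

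The treated cells stood far from primary neurons across the transcriptome. With limma at an adjusted p of 0.05, 3960 of 19938 genes were higher in treated cells (19.9%) and 4241 were lower (21.3%), together 41.1%. By at least 2-fold, 2123 genes were higher (10.6%) and 1524 lower (7.64%), so with the deposited scaling large differences were more often increases. The 5 treated and 6 primary arrays did not overlap for 3219 genes that were higher (16.1%) and 3047 that were lower (15.3%). For 13168 genes (66%) the 95% interval of the difference lay within 2-fold. The median difference over all genes was -0.09 and the median SE 0.16. Centring arrays on the medians of the named genes, an alternative chosen after seeing the data, moved this median to -0.295. With it 3059 genes were higher and 8787 lower, so the split between directions depends on the scaling. By at least 2-fold this centring gave 1654 higher and 1977 lower genes, and quantile normalization gave 1817 and 1760.

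The genes with the largest increases were not neuronal. Mt2, a metallothionein gene that binds zinc and copper, was at 12.64, 12.80, 12.56, 12.42 and 12.08 on treated arrays 1 to 5 and at 5.60 at E13.5 and 5.51 at E14.5, a difference of 6.95 (SE 0.20, adjusted p = 5.22e-10). Ttr, the transthyretin gene made in choroid plexus, liver and yolk sac, was at 13.24, 12.91, 12.89, 12.88 and 13.02 against 6.54 at E13.5 and 5.86 at E14.5, higher by 6.78 (SE 0.19). No treated array came near a primary array for either gene. The other leading increases were the interferon-induced membrane gene Ifitm3 (6.68), the calcium-binding gene S100a6 (6.58), Gja1, the connexin 43 gene (5.61), the glutathione transferase gene Gsta4 (5.58), the growth factor gene Igf2 (5.58), the secreted glycoprotein gene Lgals3bp (5.56), Txnip, which restrains thioredoxin (5.54), and the keratin gene Krt18 (5.53).

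The leading decreases were neuronal. Kcnk9, a potassium leak channel gene, was at 4.82, 4.59, 4.53, 4.83 and 5.87 on the treated arrays and at 10.47 at E13.5 and 10.22 at E14.5 (difference -5.42, SE 0.34, adjusted p = 1.89e-07). Next came Rab3c, a vesicle GTPase gene (-5.25), Slc10a4, a transporter of monoamine and cholinergic vesicles (-5.16), Dcx, the doublecortin gene of young neurons (-4.99), and the midbrain homeobox gene En2 (-4.88). Th (-4.87), the synaptotagmin gene Syt4 (-4.79), the intermediate filament gene Ina (-4.67), Slc18a2 (-4.66) and the transcription factor gene Ebf3 (-4.60) completed these 10. In all 10 of these genes treated array 5 had the highest level of the 5 treated arrays.

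**Figure D1:**
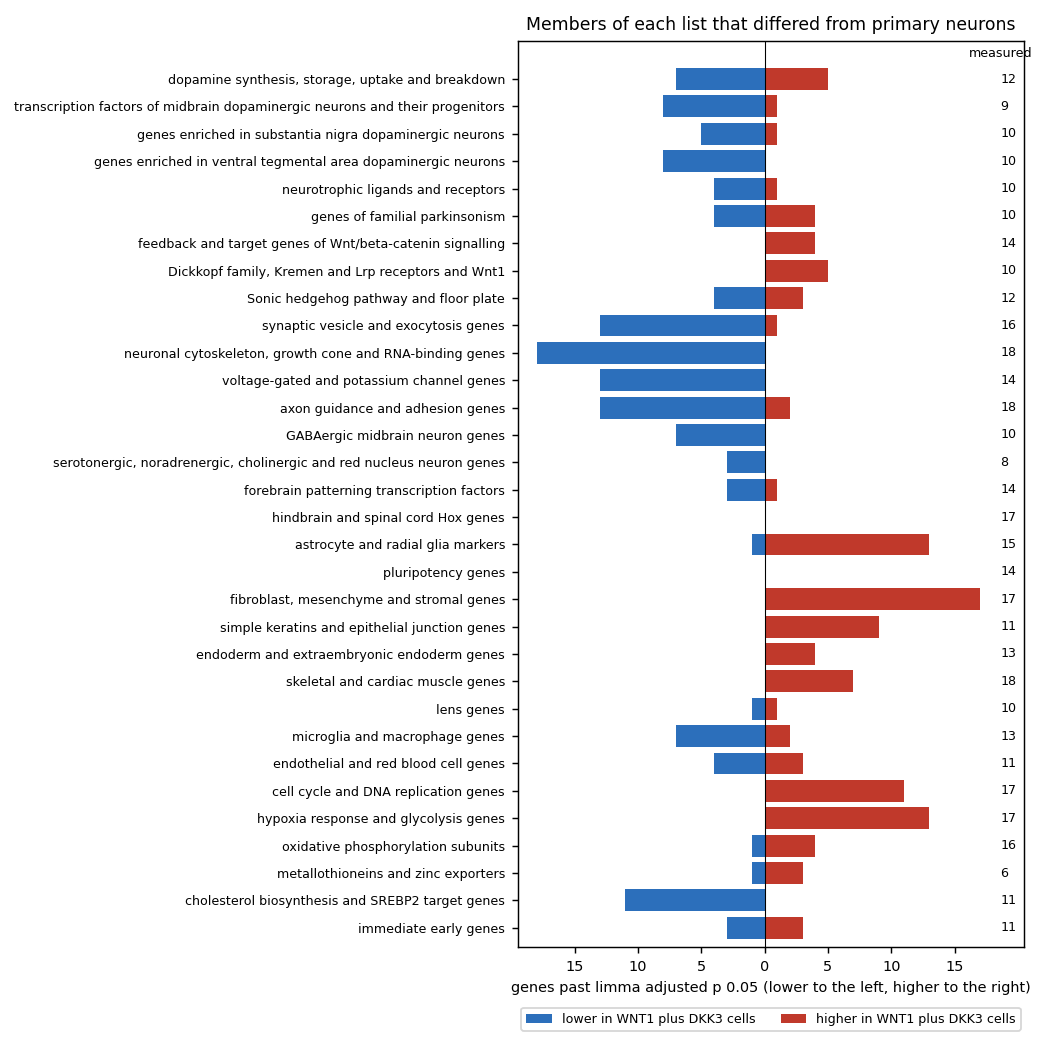
Number of members of each gene list that were lower (blue bars, to the left of 0) or higher (red bars, to the right of 0) in treated cells at a limma adjusted p of 0.05, with the number measured at the right. Neuronal and dopaminergic lists extend to the left, and stromal, glial, epithelial, cell cycle and hypoxia lists to the right; 21.3% of all genes were lower and 19.9% higher.

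The genes of dopamine's own synthesis, storage and uptake were lower in treated cells, the monoamine oxidase genes that break it down were higher, and genes of the pterin cofactor went both ways. Of 12 measured genes of dopamine handling, 7 were lower and 5 higher, where 21.3% of all genes were lower and 19.9% higher, and the median difference was -2.56 against -0.09 over all genes. Th encodes tyrosine hydroxylase, which sets the rate of dopamine synthesis. It was at 5.93, 5.29, 5.79, 5.56 and 9.22 on treated arrays 1 to 5, at 11.34, 11.48 and 10.52 on the E13.5 arrays and at 11.35, 11.53 and 11.16 on the E14.5 arrays. Array 5 thus lay between the other treated arrays and the primary arrays, and the groups did not overlap. The mean difference of -4.87 (SE 0.99, adjusted p = 0.00184) corresponds to 29.3-fold, and without treated array 5 it was -5.59 (SE 0.67). In such pooled RNA, fewer dopaminergic cells and less RNA per cell cannot be told apart.

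Slc18a2, which encodes the transporter that loads dopamine into vesicles, was at 5.28, 4.80, 4.96, 4.97 and 8.25 on the treated arrays and at 10.55 at E13.5 and 10.08 at E14.5, a difference of -4.66 (SE 0.87, adjusted p = 0.00104). Slc10a4 was at 5.43, 6.11, 5.40, 5.64 and 8.24 against 11.32 at E13.5 and 11.32 at E14.5. Here too array 5 was the highest treated array, and it stayed below the lowest primary array. Slc6a3, the dopamine transporter gene, behaved differently on that array: the treated values were 5.22, 4.98, 4.92, 4.94 and 8.87, and the primary arrays were at 8.54, 9.13 and 8.58 (E13.5) and 9.24, 9.22 and 8.88 (E14.5). Array 5 therefore overlapped the primary arrays for Slc6a3, while treated arrays 1 to 4 were at or below 5.22. The difference of -3.15 (SE 1.11, adjusted p = 0.0387) became -3.92 (SE 0.79) without array 5. Its call was lost when treated array 1, 2, 3 or 4 was left out and against either stage alone (adjusted p from 8.17e-09 to 0.175 over 17 alternatives).

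Of the other decreases in this list, Ddc, the decarboxylase gene that completes dopamine synthesis, was at 5.67, 5.74, 5.69, 5.76 and 8.19 on the treated arrays, a difference of -4.01 from primary neurons. Gch1, the first enzyme gene of the pterin cofactor, differed by -2.68, and Drd2, the autoreceptor gene, by -2.43. The 5 increases were Maoa (1.08, SE 0.16, adjusted p = 0.000169) and Maob (1.05, SE 0.22, adjusted p = 0.00252), the monoamine oxidase genes, and the cofactor genes Spr (0.69), Qdpr (0.68) and Pts (0.42). Maoa was at 7.60, 7.71, 7.66, 7.62 and 7.34 on treated arrays and at 6.20 at E13.5 and 6.81 at E14.5. The monoamine oxidase genes are also active in glia and other cells, whose markers are described further on, and the part of such cells in these increases was not tested. Spr, Qdpr and Pts differed by less than 2-fold, and each lost its call against E13.5 alone, Spr in 3 and Pts in 4 of 17 alternatives in all (adjusted p from 0.00648 to 0.234 for Spr, 0.000627 to 0.125 for Qdpr and 0.00098 to 0.185 for Pts over 17 alternatives).

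**Figure D2:**
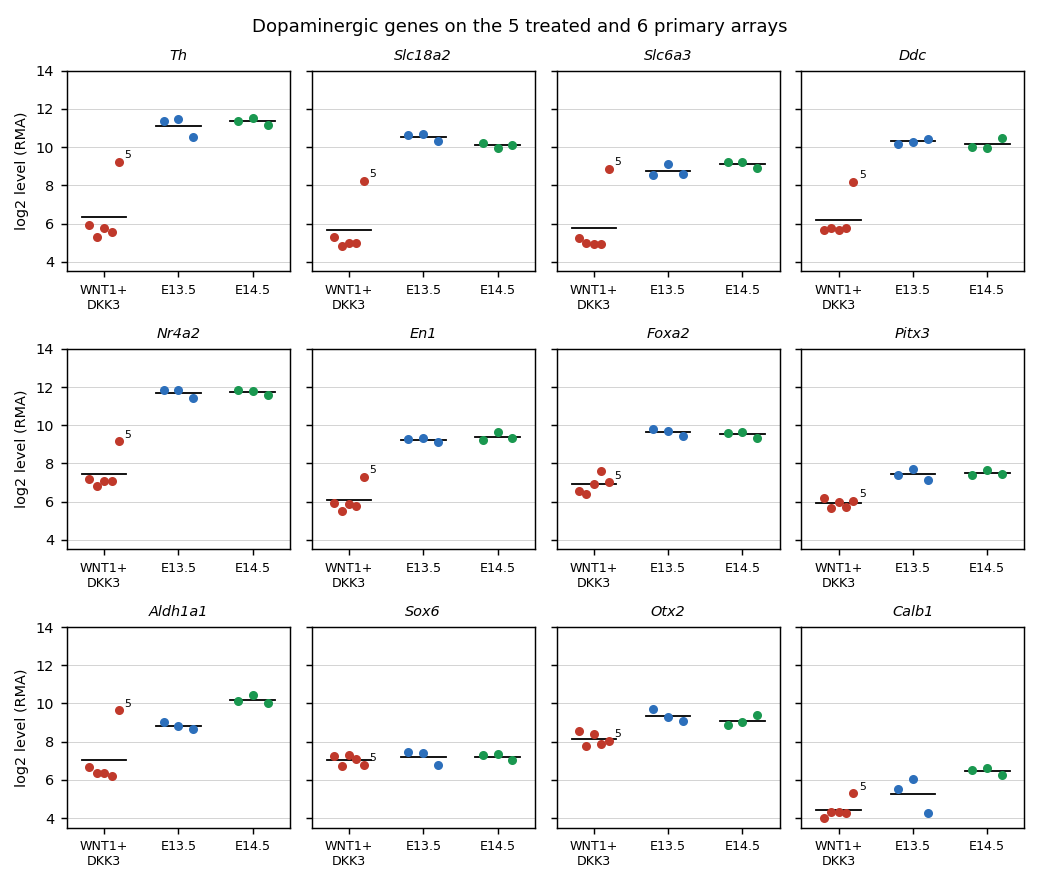
Log2 levels of 12 dopaminergic genes on the 5 treated arrays (red, treated array 5 marked) and on the 3 technical arrays of E13.5 (blue) and of E14.5 (green), with group means as black lines. Th, Slc18a2, Ddc, Nr4a2, En1, Foxa2, Pitx3 and Otx2 do not overlap between treated and primary arrays, and treated array 5 reaches primary levels for Slc6a3 and Aldh1a1. The treated and primary ranges also overlap for Calb1 and Sox6.

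Transcription factors of these neurons were lower as well. Of 9 measured genes, 8 were lower (21.3% of all genes were) and 1 was higher, with a median of -2.67, and for the same 8 genes the treated and primary arrays did not overlap (15.3% of all genes). Nr4a2, required for the dopaminergic transmitter phenotype, was at 7.18, 6.84, 7.10, 7.10 and 9.16 on treated arrays and at 11.69 at E13.5 and 11.73 at E14.5, a difference of -4.24 (SE 0.58, adjusted p = 9.32e-05). En1 and En2, homeobox genes of the midbrain and of dopaminergic neuron survival, differed by -3.25 and -4.88. En1 was at 5.91, 5.50, 5.90, 5.80 and 7.29 on the treated arrays and at 9.25 at E13.5 and 9.41 at E14.5.

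Foxa2, a floor plate and dopaminergic neuron factor, was at 6.57, 6.41, 6.93, 7.63 and 7.02, so treated array 4 and not array 5 was highest, against 9.63 at E13.5 and 9.53 at E14.5 (difference -2.67, SE 0.33, adjusted p = 4.1e-05). The related gene Foxa1 differed by -3.19, Lmx1b by -2.25 and the proneural gene Neurog2 by -1.91. Pitx3, the locus that carries GFP, was at 6.17, 5.67, 5.96, 5.73 and 6.06 on treated arrays and at 7.44 at E13.5 and 7.50 at E14.5, a difference of -1.55 (SE 0.18, adjusted p = 2.56e-05), which is 2.93-fold. Pitx3 on array 5 lay within the range of the other treated arrays, in contrast to Th, Slc18a2 and Nr4a2. The increase was Msx1, a homeobox gene of dopaminergic progenitors and of many other embryonic tissues, at 8.66, 8.09, 8.44, 7.96 and 7.96 against 6.63 at E13.5 and 6.03 at E14.5 (difference 1.89, SE 0.23, adjusted p = 4.11e-05).

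Genes of both main subsets of dopaminergic neurons were lower, with exceptions. Among genes of the ventral tegmental area 8 of 10 were lower (80%, against 21.3% of all genes) and 0 higher. Their median was -1.27, and without the 25% of dimmest genes 4 were lower. Cck, a neuropeptide gene, was at 6.06, 5.95, 5.48, 5.49 and 6.44 on treated arrays and at 10.15 at E13.5 and 10.13 at E14.5 (difference -4.26, SE 0.31, adjusted p = 6.64e-07). Slc17a6, the vesicular glutamate transporter gene, was at 4.65, 4.57, 4.48, 4.16 and 6.75 against 9.03 at E13.5 and 9.16 at E14.5, and the transcription factor gene Neurod6 differed by -2.34. Otx2 was at 8.56, 7.78, 8.39, 7.90 and 8.04 against 9.37 at E13.5 and 9.10 at E14.5, a difference of -1.10 (SE 0.25, adjusted p = 0.00404). It lost its call against E14.5 alone (adjusted p = 0.0573, from 0.00105 to 0.0573 over 17 alternatives). Calb1, the calbindin gene, was lower at a difference of -1.44, with primary arrays from 4.27 to 6.61 that overlapped the treated range of 4.01 to 5.31. Its call was lost against E13.5 alone (adjusted p = 0.151, from 0.000316 to 0.151 over 16 alternatives).

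Of 10 genes enriched in the substantia nigra, 5 were lower (50%, against 21.3% of all genes) and 1 was higher (10%, against 19.9%). The other 4 did not pass, and the median was -0.66. Sox6, a transcription factor gene of nigral neurons and of several other cell types, did not pass: it was at 7.26, 6.72, 7.31, 7.09 and 6.79 on treated arrays and at 7.21 at E13.5 and 7.23 at E14.5. The interval of its difference ran from -0.64 to 0.27, so a 2-fold change in either direction lay outside it. Aldh1a1, a retinaldehyde dehydrogenase gene of ventral nigral neurons, was at 6.67, 6.35, 6.35, 6.22 and 9.64 on the treated arrays and at 8.85 at E13.5 and 10.19 at E14.5. Treated array 5 was above all 3 arrays of E13.5, and the other 4 were at or below 6.67. Its difference was -2.47 (SE 0.91, adjusted p = 0.0455), and the call was lost in 8 of 17 alternatives, including each without treated array 1, 2, 3 or 4 (adjusted p from 1.15e-05 to 0.294). Lmo3, a transcriptional cofactor gene, differed by -3.23. Anxa1, the annexin gene of a nigral subset and of epithelial and immune cells, was higher in treated cells, at 9.12, 9.41, 9.99, 10.61 and 9.77 against 4.50 at E13.5 and 4.77 at E14.5 (difference 5.14, SE 0.37, adjusted p = 5.65e-07).

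Receptors of the GDNF family, which supports dopaminergic neurons, were lower. Among 10 neurotrophic ligands and receptors 4 were lower (40%, against 21.3% of all genes), 1 was higher (10%, against 19.9%) and 5 did not pass. Ret, the signalling receptor of GDNF, was at 5.29, 5.42, 5.20, 5.13 and 8.31 on treated arrays and at 9.27 at E13.5 and 9.31 at E14.5 (difference -3.42, SE 0.86, adjusted p = 0.00727). Its co-receptor genes Gfra1 and Gfra2 differed by -3.43 and -1.63. Array 5 was the highest treated array for each of these receptors. Against either stage alone Ret lost its call (adjusted p from 3.9e-09 to 0.055 over 17 alternatives), and against E13.5 alone 2 genes of the list were lower. Ntrk2, the BDNF receptor gene of neurons and astrocytes, was higher by 0.91 (SE 0.22, adjusted p = 0.00547), and this call was lost against E14.5 alone (adjusted p = 0.0894, from 0.0025 to 0.0894 over 17 alternatives). Gdnf itself was at 5.36, 5.23, 5.18, 5.24 and 5.37 and 5.32 at E13.5 and 5.24 at E14.5, with an interval from -0.25 to 0.24.

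Of 10 genes of familial parkinsonism 4 were lower and 4 higher, 40% each way against 21.3% and 19.9% of all genes. Dnajc6, which encodes the auxilin that uncoats synaptic vesicles, was at 6.21, 6.41, 6.42, 6.42 and 8.35 on treated arrays and at 10.02 at E13.5 and 10.16 at E14.5 (difference -3.33, SE 0.51, adjusted p = 0.000239). Uchl1, an abundant neuronal ubiquitin hydrolase gene, differed by -2.78 and the lysosomal pump gene Atp13a2 by -1.42. The 4 increases, Lrrk2, Park7, Pink1 and Fbxo7, were each below 2-fold, from 0.46 to 0.94, and the count was 2 against E13.5 alone and 1 against E14.5 alone. For Lrrk2 different probe sets gave opposite signs.

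Most genes of neuronal form and transmission were lower. For neuronal cytoskeleton, growth cone and RNA-binding genes, 18 of 18 were lower, where 21.3% of all genes were. For all 18 the treated and primary arrays did not overlap (15.3% of all genes), and the median was -3.96. Dcx was at 5.47, 5.03, 5.55, 5.79 and 7.84 on treated arrays and at 10.96 at E13.5 and 10.88 at E14.5, which is a 31.7-fold difference (adjusted p = 7.19e-05). Stmn2, the growth cone gene stathmin 2, was at 7.68, 7.48, 6.30, 6.49 and 10.09 against 12.13 at E13.5 and 12.22 at E14.5, a difference of -4.56. Tubb3, the neuronal beta-tubulin gene, was at 7.45, 7.18, 7.02, 7.17 and 10.15 against 11.89 at E13.5 and 11.84 at E14.5. Treated array 5 was the highest of the 5 for 17 of the 18 genes, and its median over the list was -2.12 relative to primary neurons, against -4.18 to -4.47 on the other arrays. Nefm, a neurofilament gene of more mature axons, broke this pattern with 4.88, 4.94, 4.72, 5.35 and 4.60, where array 5 was lowest. The summed linear level of the 18 genes was 1700 to 8880 on treated arrays and 31500 to 37100 on primary arrays.

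Of 16 synaptic vesicle and exocytosis genes, 13 were lower (81.2%, against 21.3% of all genes) and 1 higher, at a median of -2.41. Rab3c was at 4.73, 4.40, 4.28, 4.24 and 7.03 on treated arrays and at 10.19 at E13.5 and 10.18 at E14.5. Syt4 was at 5.51, 5.12, 5.34, 5.28 and 7.55 against 10.62 at E13.5 and 10.49 at E14.5, and Snap25, a membrane fusion gene, at 6.27, 5.80, 5.79, 5.63 and 8.76 against a range of 9.13 to 10.57 on primary arrays. For these 3 genes array 5 lay between the other treated arrays and the primary arrays. The single increase, Unc13a (0.44, SE 0.15, adjusted p = 0.0336), is uncertain: its probe sets disagreed, their mean gave -1.08, and its call was lost in 8 of 17 alternatives, including each without treated array 1, 2, 3 or 5 (adjusted p from 0.000447 to 0.264).

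Of 14 voltage-gated and potassium channel genes, 13 were lower (92.9%, against 21.3% of all genes), at a median of -1.84. Scn3a, an embryonic sodium channel gene, was at 4.36, 4.27, 4.27, 4.62 and 6.23 against 8.49 at E13.5 and 8.41 at E14.5, and Cacna2d3, an auxiliary calcium channel gene, differed by -3.71. Of 18 genes of axon guidance and adhesion, 13 were lower (72.2%, against 21.3% of all genes) and 2 higher (11.1%, against 19.9%), at a median of -1.62. Dcc, the netrin receptor gene, was at 5.78, 5.07, 5.21, 5.50 and 7.55 on treated arrays and at 10.26 at E13.5 and 10.20 at E14.5 (difference -4.41, SE 0.61, adjusted p = 0.000102). The adhesion gene L1cam differed by -3.50 and the ephrin receptor gene Epha5 by -3.53. The increases were Sema3a, a secreted repellent gene that mesenchyme also makes (1.85, SE 0.47, adjusted p = 0.00719), and the netrin receptor gene Unc5c (0.54, SE 0.16, adjusted p = 0.0164). Sema3a lost its call against either stage alone (adjusted p from 0.00205 to 0.0566 over 17 alternatives) and Unc5c in 3 of 17, including against E13.5 alone (from 0.0119 to 0.188).

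Most genes of neighbouring GABAergic midbrain neurons were lower in treated cells. Of 10 genes 7 were lower (70%, against 21.3% of all genes) and 0 higher, at a median of -0.71. Gad2, an enzyme gene of GABA synthesis, was at 5.06, 4.82, 4.87, 4.82 and 6.33 on treated arrays and at 8.86 at E13.5 and 9.19 at E14.5 (difference -3.85, SE 0.38, adjusted p = 6.31e-06). Slc32a1, the vesicular GABA transporter gene, differed by -2.55 and the transcription factor gene Lhx1 by -1.16. The factor genes Gata2 (0.83), Gata3 (0.035) and Tal2 (-0.52) did not pass. Gata2 was at 7.31, 6.55, 8.21, 8.35 and 6.55 on treated arrays against 6.71 at E13.5 and 6.41 at E14.5. Some dopaminergic neurons also express GABA genes, and the source of these transcripts in the primary samples was not tested.

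Other neuronal and regional lists were near background. Of 8 genes of serotonergic, noradrenergic, cholinergic and red nucleus neurons 3 were lower (37.5%, against 21.3% of all genes). Their median was -0.30, beside -0.20 for dim genes at large. The differences of Isl1 (-0.47), Dbh (-0.42) and Slc6a4 (-0.39) were the widest of that list, and Isl1 did not pass. The count was 5 without treated array 1 and 0 against either stage alone, where 4 (E13.5) and 2 (E14.5) had an unadjusted limma p under 0.05. Of 14 forebrain patterning factors 3 were lower (21.4%, against 21.3% of all genes) and 1 higher (7.14%, against 19.9%). The count of lower genes was 1 without treated array 4 or without treated array 5. Lhx2 differed by -1.40 (SE 0.20, adjusted p = 0.000116), Pax6 was higher by 0.85 and Emx2 did not pass (0.41). For 17 Hox genes of hindbrain and spinal cord, 0 passed in either direction in limma, also with its trended and robust setting, and 1 had an unadjusted p under 0.05. The median was -0.08, and all 17 intervals lay within 2-fold. The widest were Hoxb5 (0.26), Hoxa4 (-0.26) and Hoxc8 (0.21), none of which passed with all arrays. Hoxb5 passed as higher without treated array 1 and with only the first technical array of each stage (adjusted p from 0.0143 to 0.662 over 17 alternatives).

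Astrocyte and radial glia genes were high in treated cells. Of 15 genes 13 were higher and 1 lower, where 19.9% of all genes were higher, at a median of 2.32. Gfap, the intermediate filament gene of astrocytes, was at 10.53, 9.94, 10.52, 9.79 and 9.71 on treated arrays and at 4.73 at E13.5 and 4.95 at E14.5, 38.3-fold higher (adjusted p = 8.79e-08). Gja1, whose connexin couples astrocytes and many other cells, was at 11.17, 10.96, 11.07, 10.73 and 11.41 against 5.21 at E13.5 and 5.70 at E14.5. Slc1a3, a glutamate transporter gene of radial glia and astrocytes, was higher by 3.09 (SE 0.30). All 5 treated arrays were high for these genes, array 5 included. The exception was Slc1a2, the other glial glutamate transporter gene, which was lower at a difference of -1.27 (SE 0.24, adjusted p = 0.00102). Fabp7, a radial glia gene, did not pass, at 11.88, 11.65, 12.11, 11.71 and 10.29 against 9.94 at E13.5 and 10.78 at E14.5. The summed linear level of the 15 genes was 14700 to 18700 on treated arrays and 3480 to 5720 on primary arrays.

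Stromal genes were higher throughout. Of 17 genes of fibroblasts, mesenchyme and stroma, 17 were higher, where 19.9% of all genes were, at a median of 3.80. For each of them treated and primary arrays did not overlap (16.1% of all genes). Dcn, the decorin proteoglycan gene, was at 11.14, 11.48, 11.16, 10.84 and 11.87 on treated arrays and at 5.53 at E13.5 and 6.11 at E14.5, a 44.6-fold difference (adjusted p = 4.35e-08). Ogn, another small proteoglycan gene, was higher by 5.44, and Mgp, a matrix inhibitor of calcification, by 5.15. Mgp varied most among treated arrays, from 8.47 on array 4 to 12.15 on array 5. Fn1, the fibronectin gene, spanned only 10.82 to 11.25 over the 5 arrays against 6.02 at E13.5 and 6.18 at E14.5. Summed over the list the linear level was 16800 to 27300 on treated arrays and 1090 to 1420 on primary arrays. The part of such cells in the lower neuronal levels was not tested.

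**Figure D3:**
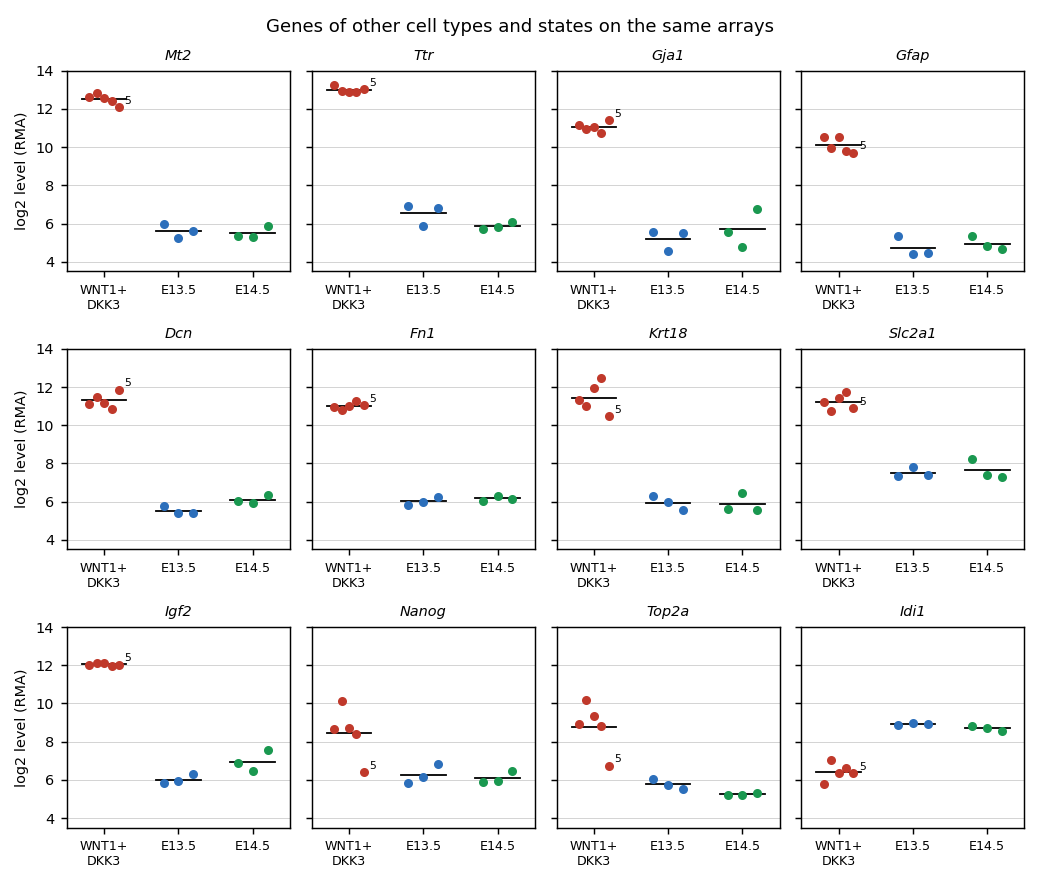
Log2 levels of 12 genes of other cell types and states on the 5 treated arrays (red, treated array 5 marked), the E13.5 arrays (blue) and the E14.5 arrays (green), with group means as black lines. Mt2, Ttr, Gja1, Gfap, Dcn, Fn1, Krt18, Slc2a1 and Igf2 are high on all 5 treated arrays, Nanog and Top2a are high on treated arrays 1 to 4, and Idi1 is low on all 5.

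Epithelial genes were higher and uneven over the treated arrays. Of 11 simple keratin and junction genes 9 were higher (81.8%, against 19.9% of all genes). Their median was 3.23, with array medians of 3.07, 2.75, 3.75, 4.32 and 2.22. Treated array 4 was the highest of the 5 for 11 of the 11 genes and array 5 the lowest for 11. Krt18 was at 11.31, 11.00, 11.94, 12.50 and 10.47 against 5.93 at E13.5 and 5.89 at E14.5 (difference 5.53, SE 0.48, adjusted p = 2.54e-06). Its partner Krt8 was higher by 3.82 and Krt19 by 4.97. The summed linear level of the list was 4450 to 19600 on treated arrays and 566 to 737 on primary arrays. Both epithelial and stromal sums on treated arrays lay above the highest primary array.

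Of 13 endoderm and extraembryonic endoderm genes 4 were higher (30.8%, against 19.9% of all genes) and 0 lower, at a median of 0.36. The increases were led by Ttr. Dab2, an endocytic adaptor gene of visceral endoderm and macrophages, was higher by 3.03 (SE 0.21), although its probe sets gave opposite signs. Lama1, a basement membrane laminin gene, was at 7.58, 8.09, 10.01, 10.05 and 8.22 on treated arrays against 5.85 at E13.5 and 5.66 at E14.5, with arrays 3 and 4 highest, and lost its call against E13.5 alone (adjusted p = 0.0533, from 0.00179 to 0.0533 over 17 alternatives). Afp, a marker of visceral endoderm and fetal liver, did not pass and was at 4.50, 4.51, 4.76, 4.67 and 4.50 against 4.66 at E13.5 and 4.33 at E14.5, and Apob and Hnf4a did not pass. Sox17, Gata4, Gata6 and Cubn, which did not pass either, were highest on treated arrays 3 and 4, as Cubn shows with 5.01, 5.34, 7.10, 6.86 and 5.10.

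Muscle and lens genes were checked because both tissues express Pitx3. Among 18 genes of skeletal and heart muscle 7 were higher (38.9%, against 19.9% of all genes) and 0 lower. Their median was 0.90, with array medians of 0.51, 0.28, 0.38, 0.47 and 1.97. Treated array 5 was the highest of the 5 for 14 of the 18 genes. Myl4, an embryonic myosin light chain gene, was at 7.36, 7.51, 7.71, 8.24 and 8.14 on treated arrays and at 5.91 at E13.5 and 5.90 at E14.5 (difference 1.89, SE 0.31, adjusted p = 0.000393). Mylpf and Actc1, a fast light chain and the cardiac alpha-actin gene, were higher by 1.82 and 1.53. Without treated array 4 the count was 4, and against E13.5 and E14.5 alone it was 4 and 3. Myh3, the embryonic myosin heavy chain gene, did not pass, at 5.81, 5.47, 6.05, 5.99 and 8.05 against 5.41 at E13.5 and 5.11 at E14.5, and the myogenic factor genes Myod1 and Myf5 were not passing, with differences of -0.10 and -0.13.

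Of 10 lens genes 1 was higher and 1 lower, 10% each way against 19.9% and 21.3% of all genes. The higher one was Cryab, a small heat shock protein gene that many tissues express, at 10.10, 9.67, 10.78, 11.04 and 9.74 against 5.65 at E13.5 and 5.78 at E14.5 (difference 4.55, SE 0.43, adjusted p = 4.61e-06). Crybb1, a lens crystallin gene, differed by -0.37 (adjusted p = 0.0493) and no longer passed in 12 of 17 alternatives, including those without treated array 1, 2, 3 or 5 (adjusted p from 0.00417 to 0.286). Cryba1 did not pass (0.13).

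Of 13 microglia and macrophage genes 7 were lower (53.8%, against 21.3% of all genes) and 2 higher (15.4%, against 19.9%). C1qc, a complement gene of microglia, was at 5.56, 5.32, 5.44, 5.04 and 4.98 on treated arrays and at 6.01 at E13.5 and 7.02 at E14.5 (difference -1.25, SE 0.24, adjusted p = 0.00117), and its primary arrays ranged from 5.70 to 7.43. The increases were Cd68, a lysosomal gene of macrophages and other cells, at 9.39, 8.87, 9.89, 10.14 and 9.14 against 6.16 at E13.5 and 6.59 at E14.5, and Csf1r, at 7.83, 6.61, 8.80, 9.50 and 7.56 against 5.75 at E13.5 and 6.25 at E14.5. Csf1r lost its call in 5 of 17 alternatives, including those without treated array 3 or 4 (adjusted p from 0.0111 to 0.198). The leukocyte gene Ptprc, at 4.00, 4.05, 3.90, 3.87 and 4.20, lay below the lower quartile of each treated array. Of 11 endothelial and red blood cell genes 3 were higher (27.3%, against 19.9% of all genes) and 4 lower (36.4%, against 21.3%). The increases were Cdh5, the vascular cadherin gene, at 8.24, 8.28, 8.60, 9.14 and 9.10 against 5.38 at E13.5 and 5.74 at E14.5, the VEGF receptor gene Kdr (1.82) and the TGF-beta co-receptor gene Eng (1.26). Kdr lost its call against E13.5 alone (adjusted p from 0.000293 to 0.0615 over 17 alternatives) and Eng against either stage alone (from 0.00775 to 0.119). Emcn, the endomucin gene, did not pass and was uneven, at 6.42, 7.40, 5.16, 4.71 and 7.64. The decreases were Cldn5 and 3 embryonic globin genes, with differences from -0.92 to -0.39, beside -0.20 for dim genes at large. Without the dimmest 25% of genes 1 was lower, and 1 and 2 genes were lower against E13.5 and E14.5 alone.

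Most pluripotency genes were high on 4 of the 5 treated arrays and near the primary level on array 5. Among the others, Klf4 differed by -0.59 and Klf2 by 0.14 over all 5 arrays, and neither passed. With all arrays 0 of 14 were higher or lower in limma, also with its trended and robust setting. At an unadjusted limma p under 0.05, 6 were higher and 1 lower. The share of all genes at that unadjusted cut was not counted, and 41.1% of all genes passed the adjusted threshold in either direction. Nanog, a core pluripotency factor gene, was at 8.65, 10.14, 8.74, 8.42 and 6.40 on treated arrays 1 to 5 and at 6.26 at E13.5 and 6.10 at E14.5. Dppa5a, a gene of pluripotent and germ cells, was at 10.55, 11.65, 10.35, 10.09 and 5.95 against 7.13 at E13.5 and 6.48 at E14.5, and Tdgf1, the Nodal co-receptor gene, at 8.10, 9.48, 8.32, 8.49 and 4.71 against 5.57 at E13.5 and 4.93 at E14.5. For each of the 3 genes array 2 was highest and array 5 lay within the range of the primary arrays. Array 2 was the highest of the 5 for 13 of the 14 genes and array 5 the lowest for 12. Without treated array 5 the count was 9 of 14 higher, where 21.5% of all genes were, at a median of 1.16, with differences of 2.81 for Nanog (adjusted p = 0.00752), 3.85 for Dppa5a (adjusted p = 0.0132) and 3.35 for Tdgf1 (adjusted p = 0.00497). With all arrays the adjusted p of Nanog was 0.0513, and it ran from 0.000171 to 0.195 over 17 alternatives. The summed linear level of the list was 937 to 8010 on treated arrays and 1030 to 1270 on primary arrays.

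Cell cycle genes were also highest on array 2 and lowest on array 5. Of 17 cell cycle and DNA replication genes 11 were higher (64.7%, against 19.9% of all genes) and 0 lower. Their median was 1.84, with array medians of 1.96, 2.90, 2.22, 1.86 and 0.16. Treated array 2 was the highest of the 5 for 17 of 17 genes and array 5 the lowest for 17 of 17. Top2a, the topoisomerase gene of dividing cells, was at 8.90, 10.17, 9.32, 8.83 and 6.74 against 5.77 at E13.5 and 5.25 at E14.5 (difference 3.29, SE 0.85, adjusted p = 0.0086), although its probe sets gave opposite signs. Birc5, the survivin gene of mitosis, was higher by 2.61 and the spindle checkpoint gene Bub1 by 2.52 (adjusted p = 0.0498). Bub1 no longer passed in 10 of 17 alternatives, including each without treated array 1, 2, 3 or 4 (adjusted p from 8.42e-05 to 0.194). Top2a lost its call against E13.5 alone and Birc5 against E14.5 alone (adjusted p from 7.03e-06 to 0.0782 and from 5.81e-06 to 0.0719 over 17 alternatives). The count was 7 without treated array 3 and 2 against either stage alone. The summed linear level was 1990 to 9960 on treated arrays and 1570 to 1990 on primary arrays.

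Treated array 5 thus differed from the other 4 in several lists at once. Array 5 had the highest treated level for 6 of 12 dopamine handling, 17 of 18 neuronal cytoskeleton and 14 of 18 muscle genes. It had the lowest for 12 of 14 pluripotency, 17 of 17 cell cycle and 11 of 11 epithelial genes. Its medians for astrocyte and stromal genes, 2.35 and 4.26 above primary neurons, lay close to those of arrays 1 to 4, at 2.14 to 2.78 and 3.11 to 4.11. The correlation with the E13.5 mean across genes, which are no replicates, was 0.845, 0.834, 0.837 and 0.825 for treated arrays 1 to 4 and 0.869 for array 5. With the E14.5 mean it was 0.848, 0.838, 0.841, 0.828 and 0.872. For each array the values for both stages were nearly equal, and the stage means correlated at 0.990 with each other. Treated arrays 1 to 4 correlated with each other at 0.972 to 0.991 and with array 5 at 0.951 to 0.971, and the technical arrays of a stage at 0.968 to 0.980.

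**Figure D4:**
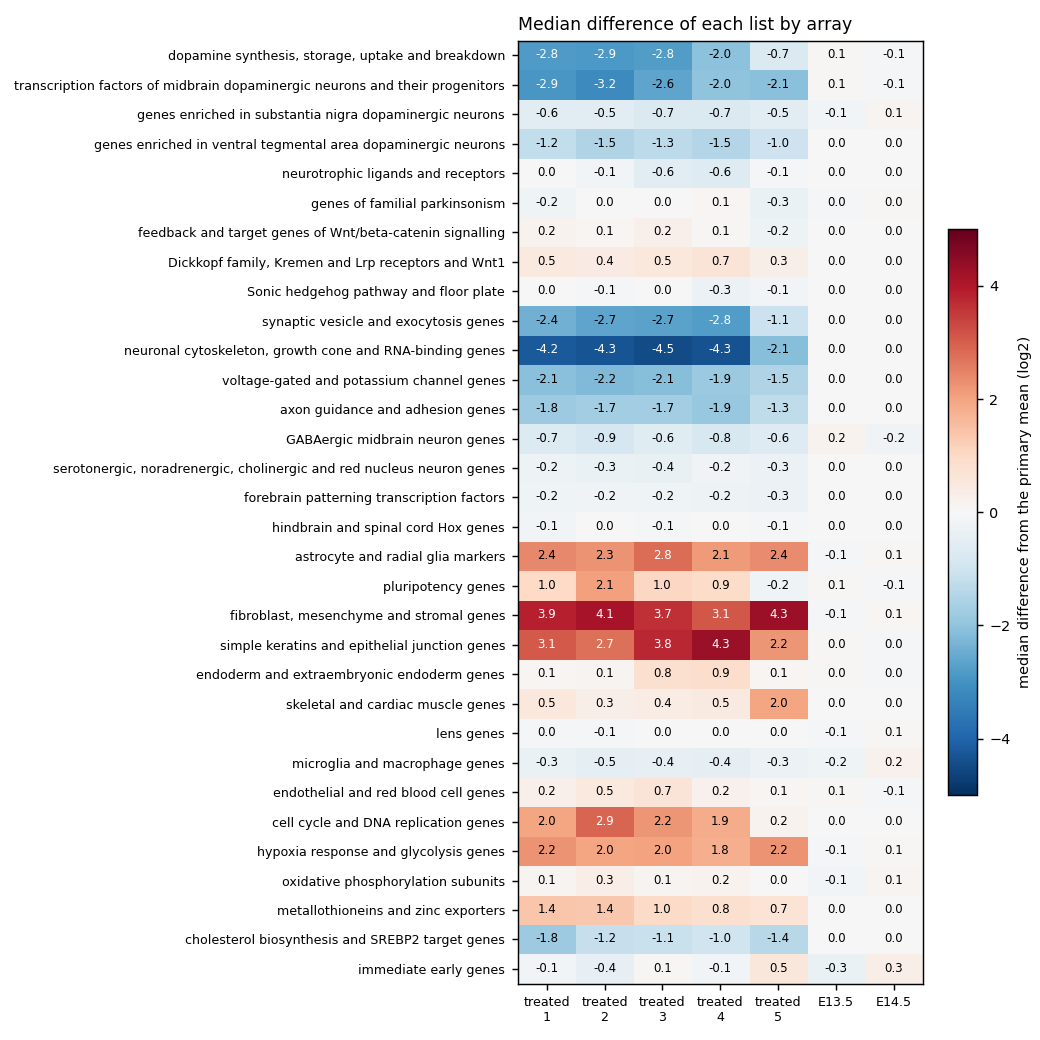
Median difference from the primary mean (log2, colour and number) of each gene list on treated arrays 1 to 5 and on the E13.5 and E14.5 means. The rows of dopamine handling, synaptic vesicles and neuronal cytoskeleton are blue on treated arrays 1 to 4 and paler on array 5, the pluripotency and cell cycle rows are red on arrays 1 to 4 and near 0 on array 5, and the stromal and glial rows are red on all 5.

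**Figure D5:**
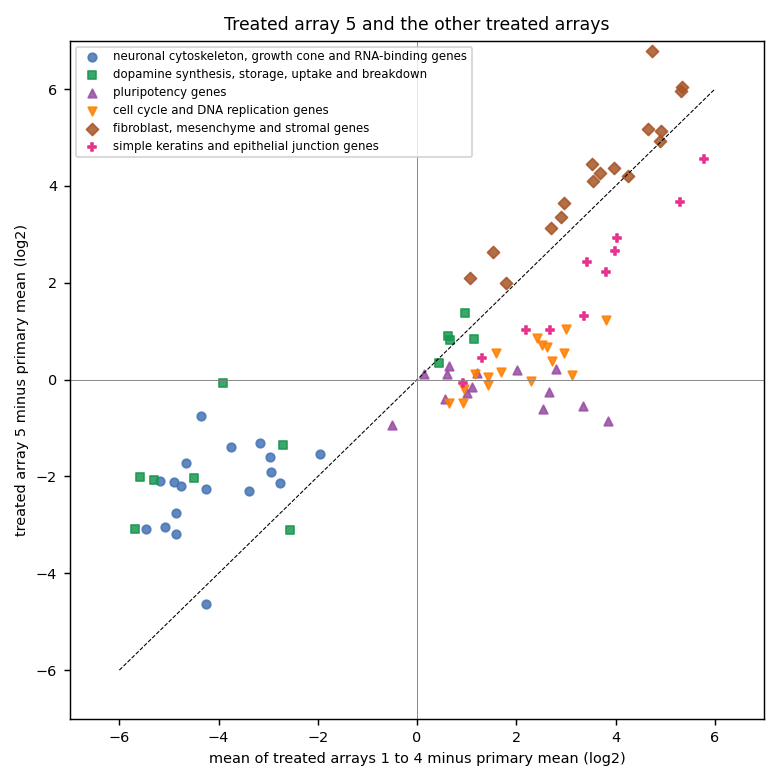
Each point is a gene of 1 of 6 lists, with its mean level on treated arrays 1 to 4 minus the primary mean on the x axis and its level on treated array 5 minus the primary mean on the y axis (log2). The dashed line marks equal differences; most neuronal and dopamine genes that were low lie above it, most pluripotency genes and the cell cycle and epithelial genes below it, and most stromal genes near or above it.

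Genes induced by low oxygen and genes of glycolysis were mostly higher. Of 17 such genes 13 were higher (76.5%, against 19.9% of all genes) and 0 lower. Their median was 2.06, with array medians of 2.25, 1.96, 2.02, 1.81 and 2.24. Slc2a1, the glucose transporter gene GLUT1, was at 11.22, 10.72, 11.40, 11.76 and 10.89 on treated arrays and at 7.53 at E13.5 and 7.66 at E14.5, 12.2-fold higher (adjusted p = 7.97e-07). P4ha2, a collagen prolyl hydroxylase gene, was at 8.86 ± 0.20 (SD, n = 5; lowest 8.52) on treated arrays against 5.50 at E13.5 and 5.20 at E14.5 (difference 3.51, SE 0.15, adjusted p = 1.43e-08). Egln3, an oxygen sensor gene, was higher by 2.98. Ankrd37, Car9, Pfkfb3 and Mxi1 did not pass, with differences from -0.64 to 0.31, and without treated array 5 1 gene was lower, where 22.3% of all genes were. Hypoxia-inducible factors bind the core ACGTG, and the 250 bases before the start site of Slc2a1 and P4ha2 are shown because their genes led this list. Both are on the plus strand of GRCm38.p6 from RefSeq, Slc2a1 at chr4:119108495-119108744 and P4ha2 at chr11:54100674-54100923, and capitals mark each match to ACGTG on either strand.
Slc2a1: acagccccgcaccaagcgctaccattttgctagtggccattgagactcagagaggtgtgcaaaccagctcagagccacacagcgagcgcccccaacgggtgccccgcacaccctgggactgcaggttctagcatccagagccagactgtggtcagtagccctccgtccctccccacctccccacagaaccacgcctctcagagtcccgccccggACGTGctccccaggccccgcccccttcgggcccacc
P4ha2: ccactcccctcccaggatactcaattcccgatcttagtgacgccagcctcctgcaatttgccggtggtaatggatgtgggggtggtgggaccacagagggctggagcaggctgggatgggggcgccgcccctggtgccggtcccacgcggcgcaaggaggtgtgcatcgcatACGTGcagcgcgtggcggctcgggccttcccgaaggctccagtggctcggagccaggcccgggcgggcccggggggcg
The match lies 36 bases before the start in Slc2a1 and 78 bases before it in P4ha2. In windows of this length 14 of 17 list members in the RefSeq table held ACGTG on either strand, and 18.5% of 27025 genes did. The 14 included Ankrd37, Car9, Pfkfb3 and Mxi1, which did not pass. Whether the matches bear on the levels was not tested. The list was picked as genes induced by low oxygen and genes of glycolysis, so its share is no test of these data.

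Metallothionein genes, which bind zinc and copper and are switched on by metals and stress hormones, included the largest increase of all genes named, Mt2. Of 6 metallothionein and zinc exporter genes 3 were higher (50%, against 19.9% of all genes) and 1 lower (16.7%, against 21.3%). Mt1 was at 12.10, 12.04, 11.85, 11.50 and 11.75 on treated arrays and at 6.93 at E13.5 and 7.60 at E14.5 (difference 4.58, SE 0.19, adjusted p = 9.36e-09). Mt3, the brain form, was at 10.17, 9.35, 9.47, 8.90 and 9.24 against 7.81 at E13.5 and 7.99 at E14.5, higher by 1.52. Slc30a3, the zinc transporter gene of synaptic vesicles, was lower at a difference of -1.02 (SE 0.22, adjusted p = 0.00279), a call lost against E14.5 alone (adjusted p from 0.000619 to 0.0728 over 17 alternatives). Slc30a1, the general zinc exporter gene, and Mt4 did not pass (0.36 and 0.48). The metal-responsive factor MTF1 binds elements with the core TGCACNC or TGCGCNC, marked in capitals on either strand in the 250 bases before Mt2 at chr8:94172368-94172617 and Mt1 at chr8:94178839-94179088 (plus strand, GRCm38.p6, RefSeq), the genes with the largest differences of the list.
Mt2: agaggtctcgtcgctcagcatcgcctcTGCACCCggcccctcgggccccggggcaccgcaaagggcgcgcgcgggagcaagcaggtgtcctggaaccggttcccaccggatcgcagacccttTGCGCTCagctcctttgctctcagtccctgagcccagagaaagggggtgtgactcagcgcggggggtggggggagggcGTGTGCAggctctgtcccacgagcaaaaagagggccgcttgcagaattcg
Mt1: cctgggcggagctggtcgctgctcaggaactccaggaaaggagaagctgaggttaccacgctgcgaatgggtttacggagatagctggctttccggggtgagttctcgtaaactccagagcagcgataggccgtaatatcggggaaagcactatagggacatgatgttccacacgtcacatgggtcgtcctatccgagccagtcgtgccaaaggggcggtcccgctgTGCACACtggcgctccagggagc
Mt2 held 3 matches, at 223, 128 and 50 bases before its start, and Mt1 held 1, at 23 bases. Of the 6 list members 5 held a match, and 23.8% of all genes did, so the core is common in windows of this length. Mt3, which was higher, held no match. Slc30a3, which was lower, held a match, as did Mt4 and Slc30a1, which did not pass.

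Cholesterol synthesis genes were lower together. Of 11 measured genes of the pathway and targets of its regulator SREBP2, 11 were lower, where 21.3% of all genes were. Their median was -1.34, with array medians of -1.81, -1.17, -1.12, -0.99 and -1.40. For 10 of them treated and primary arrays did not overlap (15.3% of all genes). Idi1, an isoprenoid enzyme gene, was at 5.80, 7.03, 6.38, 6.62 and 6.35 on treated arrays and at 8.94 at E13.5 and 8.71 at E14.5 (difference -2.39, SE 0.31, adjusted p = 5.68e-05). Cyp51, a sterol demethylase gene, was at 7.54, 7.78, 7.57, 7.90 and 7.62 against 9.43 at E13.5 and 9.40 at E14.5. Hmgcs1, which makes the pathway's precursor HMG-CoA, was at 8.42, 8.11, 8.75, 8.60 and 8.78 against 10.26 at E13.5 and 10.26 at E14.5. Array 1 was the lowest treated array for 10 of the 11 genes, and array 5 lay within the range of the others for 10, being the highest for 1. SREBP2 binds sterol regulatory elements such as TCACNCCAC, and the 250 bases before Hmgcs1 (chr13:119690101-119690350, plus strand, GRCm38.p6, RefSeq) are shown with its match in capitals.
Hmgcs1: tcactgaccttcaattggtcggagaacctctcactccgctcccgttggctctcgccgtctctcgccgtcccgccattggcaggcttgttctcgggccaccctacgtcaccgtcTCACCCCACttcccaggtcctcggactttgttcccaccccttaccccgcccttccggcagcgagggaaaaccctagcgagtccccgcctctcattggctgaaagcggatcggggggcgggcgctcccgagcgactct
The match lies 137 bases before the start. Of 8 list members in the RefSeq table, 1 held this element in the window, and 1.22% of all genes did.

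Oxidative phosphorylation genes differed little. Of 16 subunit genes 4 were higher (25%, against 19.9% of all genes) and 1 lower (6.25%, against 21.3%). The median was 0.19, and 15 intervals lay within 2-fold. The widest increase was Sdha, a succinate dehydrogenase gene, at 9.74, 9.64, 9.46, 9.61 and 9.53 against 8.76 at E13.5 and 9.06 at E14.5 (difference 0.69, SE 0.12, adjusted p = 0.000485), followed by Cox4i1 (0.56) and Ndufa9 (0.54). Sdhb, of the same complex as Sdha, was lower at a difference of -0.48, a call lost without treated array 1 or 4 and against E13.5 alone (adjusted p from 0.00341 to 0.264 over 17 alternatives). Against E14.5 alone 1 gene was higher, and the calls of Cox4i1 and Ndufa9 were among those lost (adjusted p from 0.00288 to 0.0959 and from 0.0106 to 0.149).

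Immediate early genes, which neurons switch on with activity and other cells with stress or dissociation, were near background as a list. Of 11 genes 3 were lower and 3 higher, 27.3% each way against 21.3% and 19.9% of all genes. Npas4, which is induced by neuronal calcium entry, was at 4.81, 4.71, 4.73, 4.90 and 4.87 on treated arrays and at 7.39 at E13.5 and 8.33 at E14.5, 8.32-fold lower (adjusted p = 2.4e-07). Fosb was lower at a difference of -1.92 (adjusted p = 0.018), a call lost against E13.5 alone (adjusted p = 0.17, from 0.000201 to 0.17 over 17 alternatives). Atf3, a stress-induced factor gene, was higher, at 8.05, 8.05, 8.98, 9.72 and 8.06 against 7.17 at E13.5 and 7.34 at E14.5, and no longer passed in 8 of 17 alternatives, including those without treated array 3 or 4 (adjusted p from 0.025 to 0.201). Without treated array 3, 1 gene was higher, and against E14.5 alone 0 were in limma, nor was any at an unadjusted p under 0.05.

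Wnt target genes were near background as a list. Of 14 feedback genes and targets of the Wnt/beta-catenin pathway 4 were higher (28.6%, against 19.9% of all genes) and 0 lower, at a median of 0.06, and 2 were higher against E14.5 alone. Axin2, the best known feedback target, was at 8.68, 8.10, 8.65, 8.23 and 8.77 on treated arrays and at 7.28 at E13.5 and 7.48 at E14.5 (difference 1.11, SE 0.19, adjusted p = 0.000638). Ccnd1, the cyclin D1 gene and also a cell cycle gene, was at 9.09, 9.68, 9.67, 9.17 and 8.95 against 7.40 at E13.5 and 6.77 at E14.5, higher by 2.23, and the receptor-removing ligase gene Znrf3 by 0.74. Znrf3 lost its call against E14.5 alone and after quantile normalization (adjusted p from 0.0033 to 0.112 over 17 alternatives). The targets Nkd1, Lef1 and Rnf43 did not pass, with intervals from -0.36 to 0.24, -0.41 to 0.64 and -0.42 to 0.42.

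Of 10 genes of the Dickkopf family, its receptors and Wnt1, 5 were higher (50%, against 19.9% of all genes) and 0 lower. Their median was 0.50. The mouse gene Dkk3 was at 7.42, 7.04, 7.40, 6.86 and 7.85 on treated arrays and at 6.10 at E13.5 and 6.28 at E14.5 (difference 1.13, SE 0.25, adjusted p = 0.0029). The receptor genes Kremen1 and Lrp5 were higher by 1.99 and 1.70, without overlap of arrays. Dkkl1, a relative of the family, was higher by 1.57 and lost its call against either stage alone (adjusted p from 0.00406 to 0.111 over 17 alternatives). Wnt1 itself was at 4.17, 4.05, 4.05, 4.00 and 3.89 against 4.38 at E13.5 and 4.22 at E14.5 and did not pass (-0.27, adjusted p = 0.0711, from 0.00485 to 0.593 over 16 alternatives). It passed as lower with limma's trended and robust setting and with arrays centred on the medians of named genes. Its level lay among the dimmest 25% of genes, whose median difference was -0.20. The proteins added to the culture were human and made outside the cells, so mouse Wnt1 and Dkk3 transcripts do not measure them.

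Sonic hedgehog genes as a list were near background. Of 12 pathway and floor plate genes 4 were lower (33.3%, against 21.3% of all genes) and 3 higher (25%, against 19.9%). The ligand gene Shh, which floor plate cells and some dopaminergic neurons express, was lower at a difference of -1.28, and Ntn1, the netrin gene of the floor plate, was at 7.88, 7.81, 7.93, 7.61 and 8.46 against 9.30 at E13.5 and 9.35 at E14.5 (difference -1.39, SE 0.23, adjusted p = 0.000354). The increases were the signal transducer genes Smo (1.43, SE 0.15, adjusted p = 1.33e-05), Gli3 (1.68) and Gli2 (0.87). The pathway targets Gli1 and Ptch1 did not pass, with intervals from -0.08 to 0.66 and from -0.55 to 0.37.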

How the data were processed

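RNA from sorted primary neurons and from iPSC-derived cells was measured on Affymetrix mouse gene arrays. Per the labels' protocols extraction used RNeasy kits (Mini or Micro) and amplification the Ovation PicoSL WTA System V2. The authors deposited log2 values for 35556 probe sets, and the submitters' processing notes name RMA and Affymetrix Expression Console 1.2. GEO's probe annotation listed 23410 of these probe sets, 21789 with 1 gene symbol and 1621 with several, and 12146 are unnamed here. Through Entrez identifiers 21698 probe sets were matched to the RefSeq table of GRCm38.p6. Of several probe sets of a gene, that with the highest mean was used (999 genes), which gave 19938 genes.

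The technical arrays of each stage were averaged. Differences come from limma 3.58.1 in R 4.3.3, fitted to 12 samples in 3 groups (treated, control and primary, 9 residual degrees of freedom), with Benjamini-Hochberg adjustment over all genes and a threshold of 0.05. No pair of arrays was identical. The fit was tested on simulated data. Summaries used Python 3.11.15 and pandas 2.3.3.

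The members and the 32 gene lists (411 of 441 genes measured, 30 not analysed here) were chosen with earlier results of these data known. The genes named are the 10 largest differences per direction without overlap of arrays, 14 fixed genes, the 3 widest members of each list and members that passed against their list's direction. Named beyond this rule, after their values were seen, are Ddc, Gch1, Drd2, Foxa1, Lmx1b, Neurog2, Gdnf, Lrrk2, Pink1, Park7, Fbxo7, Nkd1, Lef1, Rnf43, Shh, Ptch1, Gli1, Tubb3, Nefm, Gata2, Gata3, Tal2, Fabp7, Fn1, Sox17, Gata4, Gata6, Afp, Apob, Cubn, Hnf4a, Myh3, Myod1, Myf5, Ptprc, Cldn5, Klf2, Klf4, Ankrd37, Car9, Pfkfb3, Mxi1, Slc30a1 and Mt4. Alternatives left out treated arrays, used 1 stage or 1 technical array, and changed the samples fitted, the dim-gene filter, the scaling, the probe set rule, the moderation and the replicate block.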

Additional observations from a re-analysis of the deposited data

Results flagged for a closer look

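Among the named genes, 28 of 126 (22.2%) had 1 treated array that lay far from the other 4, by Dixon's test for 5 values with a critical value of 0.71. Chance flags about 1 in 20 such groups, and over all 19938 genes 1479 were so marked (7.42%), 700 of them by treated array 5. Of the 28 genes, 27 stood apart on treated array 5, which was high for 25 and low for 2. The genes are not independent of each other, and the source of the difference was not tested.

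Among dopaminergic genes array 5 was high for Th at 9.22, Slc18a2 at 8.25, Slc6a3 at 8.87, Slc10a4 at 8.24, Nr4a2 at 9.16 and En1 at 7.29. Subset genes marked on it were Aldh1a1 at 9.64, Lmo3 at 6.38, Calb1 at 5.31, Slc17a6 at 6.75 and Neurod6 at 3.86. The neurotrophic receptor genes were Ret at 8.31, Gfra1 at 7.87 and Gfra2 at 7.47.

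Of wider neuronal genes, the vesicle and exocytosis genes Rab3c, Syt4, Snap25 and Dnajc6 were at 7.03, 7.55, 8.76 and 8.35 on array 5. The channel genes Kcnk9, Cacna2d3 and Scn3a were at 5.87, 7.18 and 6.23. Dcx was at 7.84, the guidance receptor gene Dcc at 7.55, the factor gene Ebf3 at 7.67 and the GABA enzyme gene Gad2 at 6.33.

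Array 5 was low for the pluripotency genes Dppa5a at 5.95 and Tdgf1 at 4.71. The 1 gene marked on another array was Crybb1, a lens crystallin gene, which was low on treated array 2 at 5.63.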

How the results depend on the processing

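Of 126 named genes, 88 kept their direction and their side of the threshold in all 17 alternatives, and 30 of the 114 that passed lost the call in at least 1. The counts of higher and lower genes ran from 3661 to 4290 and from 3729 to 4455 when 1 treated array was left out. With the first technical array of each stage they were 4071 and 4098, with the mean of a gene's probe sets 3946 and 4291, with trended and robust moderation 3903 and 4568, and without both arrays numbered 5 4565 and 4555. Centring arrays on their medians gave 3733 and 4560 and moved the median of all genes to -0.10, and quantile normalization gave 3394 and 4528. The 7 samples alone gave 3766 and 3676. Leaving out treated arrays in turn, the lower count ran from 2 to 5 for other neurons and from 1 to 3 for forebrain factors, and the higher count from 4 to 8 for muscle, from 7 to 14 for the cell cycle and from 1 to 3 for immediate early genes.

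Against E13.5 alone 2722 genes were lower, as were 2 neurotrophic, 0 other neuronal, 3 microglial, 1 endothelial or blood and 1 immediate early gene. Higher were 2 parkinsonism, 3 Dickkopf, 4 muscle and 2 cell cycle genes. Against E14.5 alone 2622 genes were lower, with 4 GABAergic, 0 other neuronal and 2 endothelial or blood genes. Higher were 1 parkinsonism, 2 Wnt target, 3 muscle, 2 cell cycle, 1 oxidative phosphorylation and 0 immediate early genes. Without the dimmest 25% of genes, 3964 of 14953 were higher and 3041 lower, with 4 lower genes of the ventral tegmental area and 1 each for other neurons, forebrain factors and endothelium or blood, since fewer genes were tested. The mean correlation with E13.5 and E14.5 then fell to 0.696 and 0.705. Centring on the medians of named genes, an alternative chosen after seeing the data, gave 8787 lower genes, with 7 other neuronal, 10 forebrain and 11 microglial genes lower, and 1 parkinsonism, 2 oxidative phosphorylation and 0 immediate early genes higher. Quantile normalization gave 2 parkinsonism, 2 Wnt target, 4 muscle and 0 immediate early genes higher, and 1 other neuronal and 5 forebrain genes lower. The 7 samples alone gave 4 muscle and 1 immediate early gene higher, and leaving out both arrays numbered 5 gave 17 cell cycle and 7 oxidative phosphorylation genes higher. Where not stated, the cause was not tested. Where limma's count was 0, an unadjusted p under 0.05 gave 4 and 2 other neuronal genes (E13.5 and E14.5 alone) and 0, 2 and 3 immediate early genes (E14.5 alone, named-gene centring and quantile normalization). For none of these unadjusted counts was the share of all genes at the same cut counted.

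Unc13a reversed to -1.08 with the mean of its probe sets, and Cryba1, which did not pass, to -0.006 against E14.5 alone and -0.080 with named-gene centring. With the replicate block, which shares the numbers of treated and control arrays (block correlation 0.381), 4072 genes were higher and 4074 lower and 1 forebrain factor was lower. The 0 pluripotency genes higher with all samples became 2 with the block, 4 with the first technical arrays, 1 without dim genes and 10 without both arrays numbered 5. Deviations of equally numbered treated and control arrays from their group means correlated at 0.0448, 0.52, 0.435, 0.718 and 0.798. Number 1 had the lowest of these values. Unequal numbers were not compared, so these values cannot show pairing by number, and the block is a hint only. Primary arrays share no number with treated cultures, as theirs count technical arrays. The sole limit from depth is that of signal: dim genes carry small negative differences, and the number of primary samples is 2.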
